A study of Mus musculus with 8 samples.

Results

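The genes described here are 47 genes of the endoplasmic reticulum (ER) that bring secretory proteins in, fold and oxidize them, check their sugar chains or send them out for degradation, together with sensors of this work. They were picked by gene symbol from a list drawn up with earlier results of these data known, and were sorted by role into chaperones of the ER lumen, lectin chaperones, disulfide and proline isomerases, genes of ER-associated degradation (ERAD), sensors of the unfolded protein response (UPR), the translocon and signal peptidase. All 47 were found among the 19642 genes of the count table, and all 47 had enough counts to be among the 14214 genes tested.

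RNA sequencing was done on livers of 4 WT and 4 N-LKO mice, 1 library per mouse. N-LKO mice are liver-specific knockouts of NgBR (gene symbol Nus1), made by breeding loxP-flanked NgBR alleles with albumin-Cre, and the study used male mice of the C57BL6 background. Albumin-Cre acts in hepatocytes and cells that share their albumin-expressing origin, so the other cells of the liver keep the gene, and whether the WT mice of this series carried loxP alleles or Cre is not given in their labels. All 8 mice were fed a chow diet (CD), for 8 weeks by the sample titles and for 16 weeks by their treatment entry, and each group is called by these names below.

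NgBR is a subunit of the cis-prenyltransferase that makes dolichol, the lipid on which the sugar chains for N-glycosylation are assembled before they are moved onto proteins in the ER. Proteins entering the ER are held by the Hsp70 chaperone BiP and its J-protein partners, or, once they carry a sugar chain, by the lectins calnexin and calreticulin, while protein disulfide isomerases pair their cysteines and ERAD returns failures to the cytosol for degradation. When unfolded proteins build up, the sensors IRE1, ATF6 and PERK start the UPR, in which ATF6 and the spliced form of XBP1 switch on many of the genes below. Hepatocytes, which secrete most plasma proteins, use this machinery heavily. Below, Xbp1 is counted with the sensors although it acts after IRE1, and the gene of PERK is not among the genes described.

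Library totals ran from 14688380 to 18585376 counts. Nus1 itself stood at 82.0 to 90.5 CPM (counts scaled by library total and TMM factor) in the WT livers and at 33.3 to 38.7 CPM in the N-LKO livers, so all 8 libraries matched their labels (log2 fold change -1.26, SE 0.07, adjusted p 3.1e-05 by edgeR's quasi-likelihood test). The 8 hepatocyte markers, Alb and Hnf4a among them, had a median log2 fold change of 0.01 with none called, and their summed level overlapped between groups. In a bulk sample, a larger share of cells of one type and more RNA per cell of that type cannot be told apart. The 5 tested of 9 plasma cell markers, secretory cells rich in ER, had a median log2 fold change of 0.52 with none called at an adjusted p under 0.05 and 3 with an unadjusted p under 0.05. Their summed level was 204 to 258 CPM in WT and 226 to 297 CPM in N-LKO livers. Most of this sum was Sdc1 alone, at 164 to 230 CPM in WT and 190 to 247 CPM in N-LKO livers. Jchain, one of their defining markers, was at 3.74 to 8.07 CPM in WT and at 7.33 to 10.7 CPM in N-LKO livers. Of the 8 fibroblast markers, 4 were called higher in N-LKO livers, with a summed level of 152 to 209 CPM against 236 to 335 CPM. Of 5 tested cholangiocyte markers 2 were called higher, with 35.5 to 61.2 CPM against 72.4 to 153 CPM. Among the untested ones, Cftr had 0 to 6 counts against 9 to 23, while Krt7 overlapped between groups, with 4 to 8 counts against 3 to 9. No stellate cell, sinusoidal endothelium or macrophage marker was called. The part of these cells in the values below was not tested.

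Among the 47 genes, 3 passed the test across all genes (an adjusted p under 0.05 by edgeR's quasi-likelihood test), and all 3 were higher in N-LKO livers: Hspa5, Sdf2l1 and Manf, all chaperones or chaperone partners of the ER lumen. Over all genes tested, 1.04% were called in either direction, 0.823% higher and 0.218% lower, and no member was called lower. The median log2 fold change of the 47 was 0.22, against a median of -0.0033 over all genes tested, and 42 of the 47 were above 0. An unadjusted p under 0.05 was reached by 23 of the 47, all higher in N-LKO livers (6.87% of all genes tested reached it upward and 5.9% downward). In 14 of the 47 every N-LKO liver was above every WT liver, which held for 4.2% of all genes tested, and in none was every N-LKO liver below every WT liver, which held for 3.32%. For chow-fed livers, the study reported no significant change of ER stress genes with genotype. Its text does not name those genes, so they were not compared with the members.

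By role, the medians ran from 0.02 to 0.47. The 11 chaperones had the highest median among the 7 groups, 0.47, with all 3 called genes, 10 of 11 at an unadjusted p under 0.05 and 8 without overlap between the groups. The pair of lectin chaperones had a median of 0.28, the 3 signal peptidase genes 0.23, the 10 ERAD genes 0.19, the 7 translocon genes 0.17 and the 10 isomerases 0.16, with no gene called in any of these. The 4 sensors had a median of 0.02, and none reached an unadjusted p under 0.05. Whether the roles differ from each other was not tested.

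**Figure D1:**
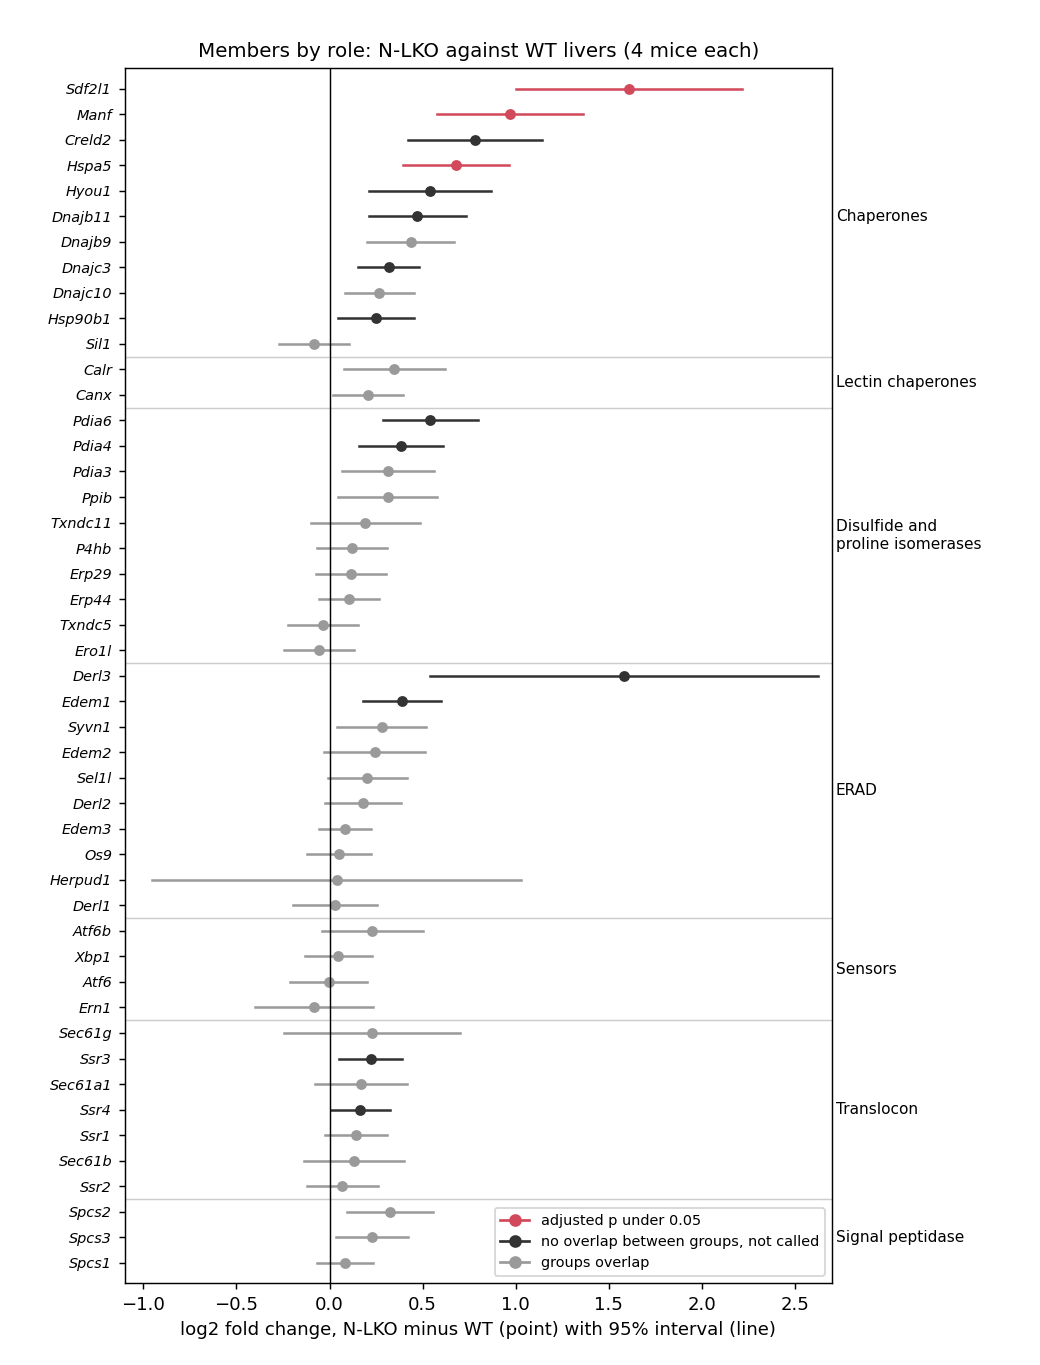
Log2 fold change of each of the 47 genes, N-LKO minus WT (x axis; 4 mice per group), with 95% intervals from the edgeR fit, grouped by role. Red genes passed the adjusted p of 0.05, dark genes did not pass but had no overlap between groups, and 10 of 11 chaperones have intervals to the right of 0 while the intervals of all 4 sensors hold 0.

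All 3 called genes work with or are BiP. Hspa5 encodes BiP, the Hsp70 of the ER lumen that binds unfolded chains and holds the UPR sensors inactive (chromosome 2, 34771970 to 34777547, plus strand, GRCm38). It stood at 694, 651, 626 and 795 CPM in WT 1 to WT 4 and at 1270, 964, 936 and 1264 CPM in N-LKO 1 to N-LKO 4. Every N-LKO liver was above every WT liver, with N-LKO 1 and N-LKO 4 the highest and WT 4 the highest of its group. The means were 692 ± 74.2 and 1108 ± 183 CPM (SD, n = 4 each), and the log2 fold change was 0.68 (SE 0.13, adjusted p 0.033 by edgeR's quasi-likelihood test). No other gene of the annotation shares exon bases with it, but its counts were estimates with decimals in all 8 mice. Of the 47 genes, 19 had decimals in at least 1 mouse.

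Sdf2l1, a lumenal partner of the J protein Dnajb11 in the BiP cycle (chromosome 16, 17130138 to 17132383, minus strand), had the largest log2 fold change of the 47. It was a low-level gene in WT livers, with 3.42, 3.13, 3.30 and 4.86 CPM, and reached 10.04, 6.40, 11.3 and 17.4 CPM in the N-LKO livers. N-LKO 2, the lowest of the knockout livers, was still above WT 4, the highest WT liver. The log2 fold change was 1.61 (SE 0.28, adjusted p 0.020 by edgeR's quasi-likelihood test).

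Manf, a small secreted factor that binds BiP and is held in the ER (chromosome 9, 106838312 to 106891979, minus strand), was measured at 37.7, 30.6, 32.6 and 44.5 CPM in WT livers and at 78.9, 49.1, 66.7 and 90.5 CPM in N-LKO livers. The groups did not overlap, and the order of the N-LKO livers was that of Sdf2l1 except for N-LKO 1 and N-LKO 3. It rose by a log2 fold change of 0.97 (SE 0.18, adjusted p 0.028 by edgeR's quasi-likelihood test). Its value is uncertain in one respect: its span overlaps Rbm15b on the same strand and Dcaf1 on the other, and its counts held decimals in all 8 mice, so reads may have been split between genes.

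These 3 calls sat close to the threshold, and each was lost in some fits that left out 1 mouse. Why they were lost was not tested. Leaving out 1 mouse at a time gave log2 fold changes of 0.61 to 0.75 for Hspa5, 1.33 to 1.80 for Sdf2l1 and 0.84 to 1.12 for Manf, with adjusted p of 0.030 to 0.101, 0.0050 to 0.068 and 0.0057 to 0.088. Without WT 1, WT 2 or WT 3, none of the 47 was called, and the adjusted p of Hspa5 by edgeR's quasi-likelihood test was then 0.067, 0.101 and 0.101. Over all genes tested, 0.937%, 0.575% and 0.628% were called in these fits. Without N-LKO 1 or N-LKO 4, 1 gene was called (Sdf2l1), and without N-LKO 2, the lowest knockout liver for many members, 7 were. By limma-voom Sdf2l1 had an adjusted p of 0.053, and DESeq2 called 11 of the 47, where it called 2.61% of all genes in either direction and 1.74% higher, adding Creld2, Hyou1, Dnajb9, Dnajb11, Dnajc3, Pdia4, Pdia6 and Edem1, all higher in N-LKO livers.

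The promoters of several of these genes hold the ER stress response element (ERSE), the letters CCAAT, 9 bases, CCACG, to which NF-Y and ATF6 bind, and some of the other members hold the shorter ERSE-II, ATTGG, 1 base, CCACG. Both were searched on both strands from 250 bases before to 50 bases after the start site in RefSeq's promoters (GRCm38.p6), of which 38 of the 47 genes had one. The other 9 had none and were not searched: Manf, which was called, and Hyou1, Sil1, Erp29, Derl1, Atf6, Sec61a1, Ssr2 and Spcs3. An ERSE was found in 9 of these 38, or 23.7%. It was found in 0.183% of the 9863 tested genes with a promoter, and in 0.119% of all 32851 promoters of the same length. ERSE-II was found in 2 of the 38, in 0.0913% of the tested genes with a promoter and in 0.0365% of all promoters. The UPRE, an XBP1 motif searched as TGACGTGG, whose other strand begins with the CCACG of the ERSE, was in 2 of the 38, Txndc5 and Txndc11. It was in 0.983% of the tested genes with a promoter and in 0.676% of all promoters. The 250 bases before the start sites of Hspa5 (chr2:34771840-34772089, plus strand) and Sdf2l1 (chr16:17132384-17132633, minus strand) are shown because both were called, one with an exact ERSE and the other without. RefSeq's start site of Hspa5 lies inside the gene span given above, so part of its 250 bases, with the ERSE, does too. Capitals mark CCAAT and CCACG of an exact match.
Hspa5: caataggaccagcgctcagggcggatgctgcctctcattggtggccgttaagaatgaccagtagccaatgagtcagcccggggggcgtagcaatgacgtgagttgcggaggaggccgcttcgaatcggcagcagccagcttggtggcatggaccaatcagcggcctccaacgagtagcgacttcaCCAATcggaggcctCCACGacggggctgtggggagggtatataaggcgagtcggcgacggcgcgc
Sdf2l1: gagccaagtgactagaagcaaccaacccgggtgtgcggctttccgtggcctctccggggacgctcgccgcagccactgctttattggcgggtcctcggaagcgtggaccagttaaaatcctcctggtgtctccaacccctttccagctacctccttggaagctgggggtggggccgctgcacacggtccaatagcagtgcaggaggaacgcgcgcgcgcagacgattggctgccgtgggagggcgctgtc

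Each ERSE match is printed below with 5 bases on either side, read so that CCAAT comes before CCACG, to let the 9 bases between CCAAT and CCACG be compared. Hsp90b1 had a match on either strand, and the matches of Calr, Creld2 and Derl3 run against the direction of the gene.
Hspa5 (chr2:34772020-34772048, plus strand): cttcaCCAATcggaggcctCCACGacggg
Hsp90b1 (chr10:86705528-86705556, plus strand): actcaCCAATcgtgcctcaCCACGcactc
Hsp90b1 (chr10:86705633-86705661, minus strand): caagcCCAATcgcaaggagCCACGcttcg
Dnajc3 (chr14:118937822-118937850, plus strand): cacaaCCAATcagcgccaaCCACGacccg
Creld2 (chr15:88819515-88819543, minus strand): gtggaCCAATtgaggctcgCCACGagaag
Pdia6 (chr12:17266486-17266514, plus strand): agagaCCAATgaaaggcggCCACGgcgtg
Calr (chr8:84847070-84847098, plus strand): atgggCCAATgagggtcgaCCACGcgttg
Canx (chr11:50325795-50325823, minus strand): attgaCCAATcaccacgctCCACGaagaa
Derl3 (chr10:75893237-75893265, minus strand): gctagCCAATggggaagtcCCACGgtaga
Syvn1 (chr19:6046527-6046555, plus strand): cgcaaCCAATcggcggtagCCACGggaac

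The ERSE-II of Herpud1 and Dnajb11 are shown in the same way, with ATTGG and CCACG in capitals. That of Herpud1 began 52 bases before the start site and that of Dnajb11 lay just after it.
Herpud1 (chr8:94386372-94386392, plus strand): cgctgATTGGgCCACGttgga
Dnajb11 (chr16:22857847-22857867, plus strand): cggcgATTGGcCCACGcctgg

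The 11 genes with an ERSE or ERSE-II had a median log2 fold change of 0.35 (range 0.04 to 1.58), all above 0, and 7 of them had no overlap between the groups. The 27 genes with a promoter and neither motif had a median of 0.19, with 24 above 0 and 5 without overlap, Sdf2l1 among them. Over all genes tested, 49.3% were above 0, and in 4.2% every N-LKO liver was above every WT liver. Outside the 47, 9 genes tested held an ERSE, among them the near-identical copies Xlr3a and Xlr3b. None of the 9 was called or free of overlap, and their median log2 fold change was 0.35. A match is a description of letters and not of binding, and the difference between genes with and without a match was not tested.

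Of the other chaperones, 7 reached an unadjusted p under 0.05 without being called. Creld2, a small ER protein that can be secreted under stress, lay just outside the threshold. It was at 16.7, 12.8, 13.1 and 18.05 CPM in WT and at 24.7, 20.6, 25.2 and 34.2 CPM in N-LKO livers, with no overlap and N-LKO 4 the highest (log2 fold change 0.78, SE 0.16, adjusted p 0.053). Hyou1, the large Hsp70-like protein that exchanges the nucleotide of BiP, was at 64.9, 63.8, 57.3 and 77.0 CPM against 87.5, 81.7, 83.7 and 129 CPM. The groups did not overlap, but N-LKO 4 stood apart from the other knockout livers, and the log2 fold change of 0.54 had an adjusted p of 0.147. Sil1, the other nucleotide exchange factor of BiP, was the one chaperone with a value below 0 (log2 fold change -0.08, SE 0.09), with overlapping groups of 24.3 to 29.2 and 22.6 to 26.0 CPM.

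The J proteins, which hand clients to BiP, had smaller and more even values. Dnajb11 (ERdj3), which passes nascent chains to BiP, was at 60.8, 57.6, 55.7 and 63.4 CPM in WT and 84.1, 65.1, 78.9 and 101 CPM in N-LKO livers. Dnajc3 (P58IPK), which also binds unfolded chains itself, was at 241, 218, 230 and 244 CPM against 289, 288, 273 and 313 CPM. Neither gene overlapped between the groups, and their log2 fold changes were 0.47 (SE 0.12, adjusted p 0.106) and 0.32 (SE 0.07, adjusted p 0.084). Dnajb9 (ERdj4), which keeps IRE1 bound to BiP, was at 62.6, 63.9, 60.5 and 70.7 CPM against 90.7, 85.9, 70.5 and 102 CPM. Only N-LKO 3 reached into the WT range there, and the log2 fold change was 0.44 (SE 0.11, adjusted p 0.101). Dnajc10 (ERdj5), a reductase that serves ERAD, was at 31.5, 27.0, 27.3 and 26.6 CPM against 36.6, 31.4, 32.7 and 34.6 CPM. Here WT 1 stood above the other WT livers and just above N-LKO 2, and the log2 fold change was 0.27 (SE 0.08, adjusted p 0.197).

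Hsp90b1 (GRP94), the Hsp90 of the ER lumen, was a contrast in size to Hspa5. It was at 887, 892, 792 and 851 CPM in WT and at 1103, 984, 899 and 1075 CPM in N-LKO livers, with N-LKO 3 barely above WT 2. The log2 fold change was 0.25 (SE 0.09, adjusted p 0.284), and its promoter held a pair of ERSE matches. Per exon length, its mean level was 434 ± 28.0 TPM (counts per exon base, scaled to one total in every liver) in WT and 498 ± 30.9 TPM in N-LKO livers, while that of Hspa5 was 335 ± 39.7 and 517 ± 67.0 TPM (SD, n = 4). Hspa5 was thus below Hsp90b1 in WT livers by more than the SD and within the SD of it in N-LKO livers. An exon of 1810014B01Rik overlaps Hsp90b1 on the other strand, and exons of Gm25745 and Gm15344 do so on the same strand. Its counts held decimals in 7 mice, so reads may have been split between genes.

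**Figure D2:**
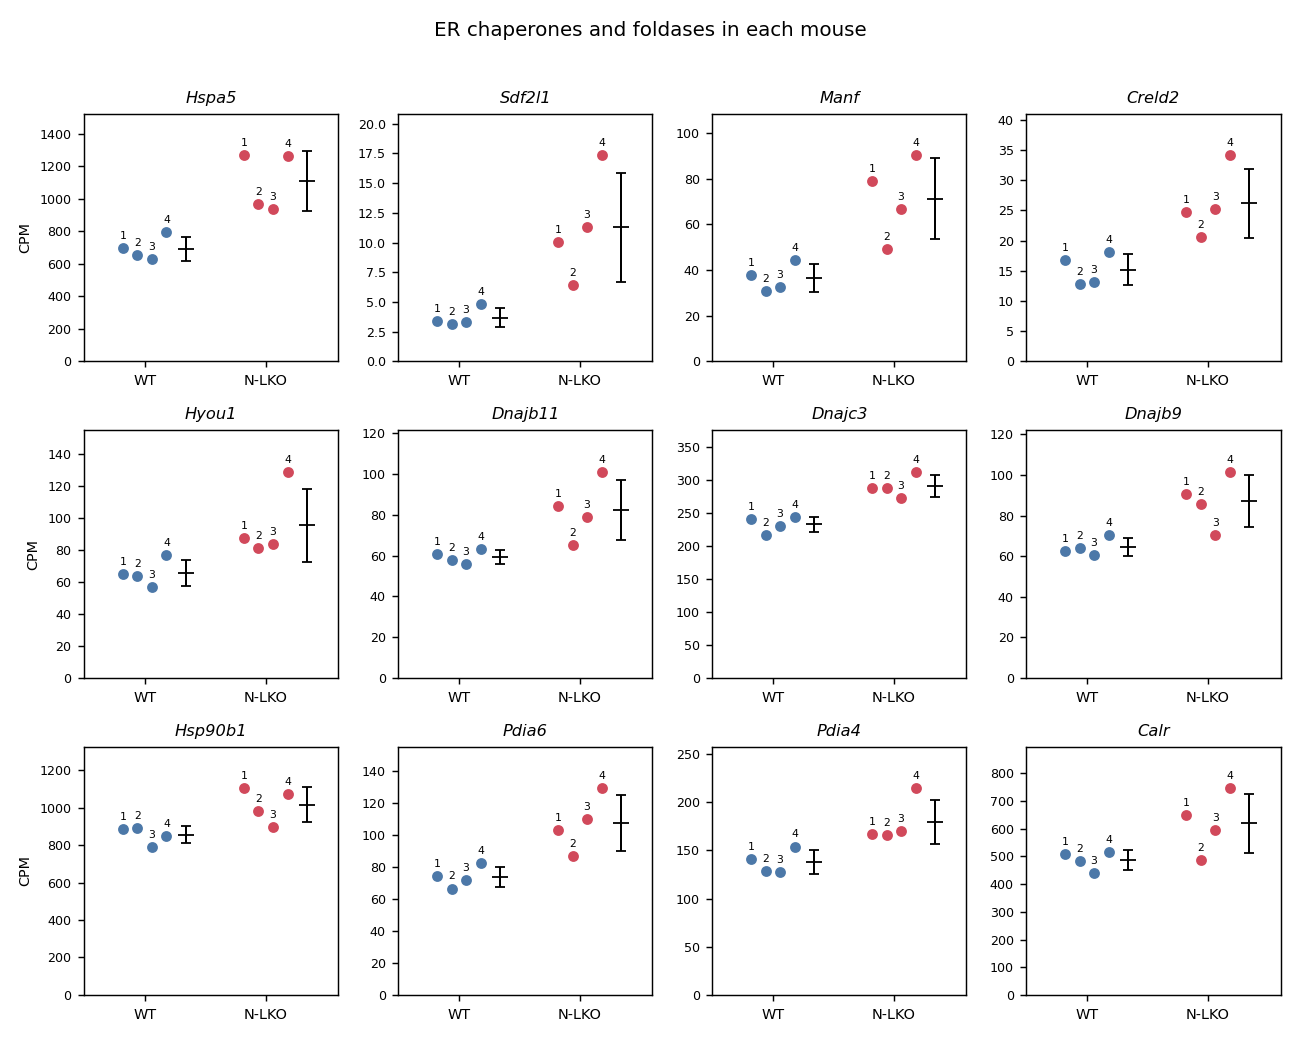
CPM of 12 chaperones and foldases in each liver (y axes from 0; numbers mark the mice), with the mean and SD of each group to the right of its points. Hspa5, Sdf2l1 and Manf have no overlap between groups, N-LKO 4 is often the highest, and N-LKO 2 or N-LKO 3 lies closest to the WT livers.

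The lectin chaperones, which retain glycoproteins until their sugar chain is trimmed, were among the abundant members and had overlapping groups. Calr (calreticulin, the soluble lectin) was at 510, 483, 439 and 518 CPM in WT and at 649, 489, 596 and 746 CPM in N-LKO livers, with N-LKO 2 inside the WT range (log2 fold change 0.35, SE 0.12, adjusted p 0.252). Canx (calnexin, its membrane-bound relative) was at 273, 291, 306 and 326 CPM against 326, 359, 320 and 374 CPM, with WT 4 level with N-LKO 1 and above N-LKO 3 (log2 fold change 0.21, SE 0.09, adjusted p 0.348). Pdia3 (ERp57), the disulfide isomerase that both lectins recruit, was at 277, 268, 297 and 329 CPM against 367, 317, 332 and 440 CPM. In this gene WT 4 lay above N-LKO 2, and the log2 fold change was 0.31 (SE 0.11, adjusted p 0.262).

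Of the other isomerases, the pair without overlap were Pdia6 and Pdia4. Pdia6 (P5), a BiP-bound isomerase that also tunes the sensors, was at 74.0, 66.5, 71.8 and 82.1 CPM in WT and at 103, 86.8, 110 and 129 CPM in N-LKO livers (log2 fold change 0.54, SE 0.12, adjusted p 0.058). Pdia4 (ERp72) was at 141, 128, 127 and 154 CPM against 167, 166, 170 and 214 CPM, with N-LKO 4 standing apart (log2 fold change 0.38, SE 0.10, adjusted p 0.131). Ppib (cyclophilin B, the proline isomerase of the lumen) was at 74.9, 80.9, 68.5 and 73.3 CPM against 93.2, 70.6, 95.9 and 110 CPM. There N-LKO 2 lay below every WT liver but WT 3 (log2 fold change 0.31, SE 0.12, adjusted p 0.298), and the gene shares bases with Snx22 on the other strand.

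P4hb, the classical protein disulfide isomerase and the member with the highest level per length (593 TPM in WT livers), was at 842, 842, 801 and 828 CPM in WT and at 910, 807, 894 and 992 CPM in N-LKO livers. N-LKO 2 lay within the WT range, and the log2 fold change was 0.12 (95% interval -0.07 to 0.31, adjusted p 0.608). The 95% intervals of Txndc11, Erp29, Erp44, Txndc5 and Ero1l also held 0, with log2 fold changes of 0.19, 0.11, 0.10, -0.04 and -0.06. Ero1l, the oxidase that recharges P4hb, was at 27.6 to 31.9 CPM in WT and 25.7 to 30.7 CPM in N-LKO livers.

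Among the 10 ERAD genes, all values were above 0, none was called and 3 reached an unadjusted p under 0.05. Edem1, a mannosidase-like lectin that takes glycoproteins out of the calnexin cycle, was at 89.4, 111, 93.7 and 94.8 CPM in WT and at 130, 113, 123 and 143.9 CPM in N-LKO livers. The groups did not overlap, with N-LKO 2 just above WT 2, and the log2 fold change was 0.39 (SE 0.10, adjusted p 0.101). Its relatives Edem2 and Edem3 had log2 fold changes of 0.24 (SE 0.12) and 0.08 (SE 0.06) with overlapping groups. Syvn1 (HRD1), the ubiquitin ligase of the ER membrane, was at 25.4, 28.1, 22.4 and 27.4 CPM against 32.7, 26.0, 31.5 and 35.3 CPM, with N-LKO 2 inside the WT range (log2 fold change 0.28, SE 0.11, adjusted p 0.301). Sel1l, its partner subunit, was at 129, 122, 128 and 149 CPM against 154, 150, 131 and 173 CPM, with N-LKO 3 inside the WT range (log2 fold change 0.20, SE 0.10, adjusted p 0.414).

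Derl3, one of the derlins that form the exit path of ERAD, had the second largest log2 fold change, 1.58, but on few reads. It was at 1.02, 0.125, 0.634 and 0.331 CPM in WT and at 1.47, 2.51, 1.19 and 1.29 CPM in N-LKO livers, with no overlap, and WT 2 was the lowest (SE 0.47, adjusted p 0.176). With so few reads its log2 CPM in a liver moved by up to 0.67 when the prior count was 0.5 in place of 2, against at most 0.09 for any other member. Derl1 and Derl2, its more abundant relatives, had log2 fold changes of 0.03 (SE 0.10) and 0.18 (SE 0.09) with overlapping groups. Os9, the lectin that presents glycoproteins to Sel1l, had one of 0.05 (SE 0.08).

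Herpud1, a membrane protein that gathers the ligase complex and a known UPR target, varied more within both groups than any member but Derl3 in WT livers. It was at 65.7, 264, 79.9 and 213 CPM in WT and at 152, 124, 89.7 and 273 CPM in N-LKO livers. WT 2 and WT 4 stood with N-LKO 4 at the top, while WT 1 and WT 3 were the lowest, so the highest of the 8 livers was 4.16 times the lowest. Its log2 fold change was 0.04 with a 95% interval of -0.95 to 1.03, which turned to -0.35 without N-LKO 4, to -0.22 without WT 1 and to -0.18 without WT 3. The coefficient of variation was 63.0% in WT and 49.9% in N-LKO livers, against 10.7% and 16.5% for Hspa5.

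None of the 4 sensors passed the test or reached an unadjusted p under 0.05, and all overlapped between groups. Xbp1, the transcription factor whose mRNA IRE1 splices, was at 98.7, 91.1, 94.9 and 92.9 CPM in WT and at 107, 83.8, 99.7 and 100 CPM in N-LKO livers, with both the highest and the lowest liver in the N-LKO group (log2 fold change 0.05, 95% interval -0.13 to 0.23). Atf6, the sensor that is cut in the Golgi to become a transcription factor, was at 70.3, 75.0, 68.3 and 77.0 CPM against 64.5, 69.9, 69.6 and 86.0 CPM (log2 fold change -0.0042, 95% interval -0.21 to 0.20). Ern1 (IRE1), the kinase and RNase, was at 42.1, 36.6, 31.1 and 40.4 CPM against 32.8, 33.5, 29.4 and 46.2 CPM (log2 fold change -0.08, 95% interval -0.40 to 0.23). N-LKO 4 lay above every other liver and N-LKO 3 below every other liver, while N-LKO 1 and N-LKO 2 lay below every WT liver but WT 3. Atf6b, the relative of Atf6, was at 5.74 to 7.69 CPM in WT and 7.20 to 8.68 CPM in N-LKO livers (log2 fold change 0.23, 95% interval -0.04 to 0.50). Gene counts do not separate spliced from unspliced Xbp1 or cut from uncut ATF6 protein, so the activity of the sensors was not measured.

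**Figure D3:**
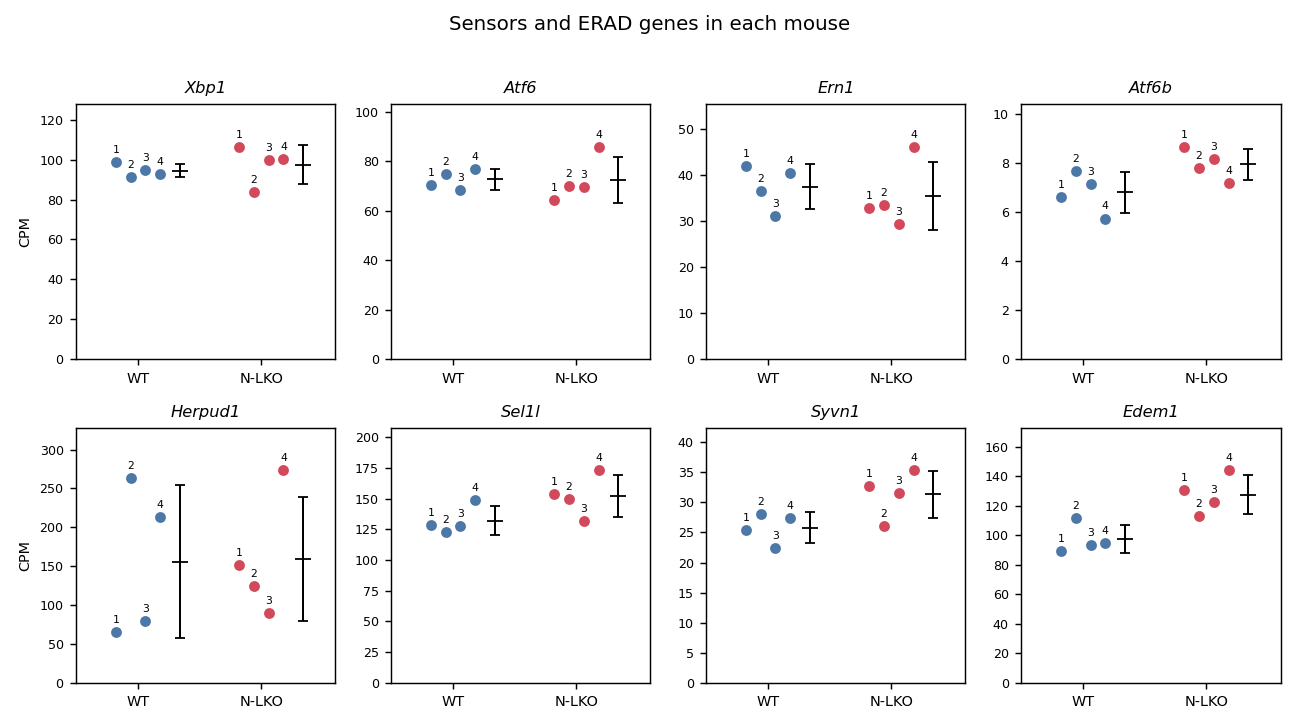
CPM of the 4 sensors (top) and of 4 ERAD genes (bottom) in each liver (y axes from 0; numbers mark the mice), with the mean and SD of each group to the right of its points. The sensors overlap between groups, Herpud1 spans 65.7 to 273 CPM without regard to group, and every N-LKO liver is above every WT liver in Edem1 but not in Sel1l or Syvn1.

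At the entry to the ER, the log2 fold changes of the 7 translocon genes ran from 0.07 to 0.23. Sec61a1, the pore of the translocon, was at 72.1, 66.3, 66.3 and 76.4 CPM in WT and at 65.4, 72.5, 82.4 and 95.9 CPM in N-LKO livers, with N-LKO 1 the lowest of all 8 (log2 fold change 0.17, 95% interval -0.08 to 0.42). Its small partners Sec61b and Sec61g had log2 fold changes of 0.13 (SE 0.12) and 0.23 (SE 0.21) with overlapping groups. Of the 4 genes of the translocon-associated protein complex, Ssr3 and Ssr4 had no overlap between groups, and Ssr1 and Ssr2 did (log2 fold changes 0.14 and 0.07).

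Ssr3 was at 201, 182, 200 and 211 CPM in WT and at 223, 224, 224 and 253 CPM in N-LKO livers, with 3 knockout livers nearly equal and N-LKO 4 apart (log2 fold change 0.22, SE 0.08, adjusted p 0.245). Ssr4 was at 31.7, 28.4, 29.6 and 28.7 CPM against 32.4, 32.1, 32.9 and 35.4 CPM, a gap between the groups smaller than the range within either (log2 fold change 0.17, SE 0.07, adjusted p 0.374). Of the signal peptidase, which removes the signal sequence from incoming chains, Spcs2 was at 40.2, 35.1, 35.9 and 39.6 CPM against 50.2, 37.8, 49.2 and 52.1 CPM. N-LKO 2 lay among the WT livers in this gene (log2 fold change 0.33, SE 0.10, adjusted p 0.204), as it did in Spcs3. Spcs3, a subunit without the catalytic site, was at 56.7, 54.0, 47.4 and 49.7 CPM against 63.4, 53.4, 60.2 and 66.1 CPM (log2 fold change 0.23, SE 0.09, adjusted p 0.305). Spcs1 had the smallest ratio of the highest to the lowest liver of the 47, with 39.3 to 40.4 CPM in WT and 39.9 to 44.6 CPM in N-LKO livers (log2 fold change 0.08, SE 0.07).

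Some mice were high or low in many members at once. N-LKO 4 was the highest of its group in 35 of the 47 genes and N-LKO 2 the lowest in 27, while WT 4 was the highest of its group in 24 and WT 3 the lowest in 17. Summed over the 47, the level was 5746 to 6425 CPM in WT livers, that is 0.575% to 0.642% of the library, and 6727 to 8452 CPM, or 0.673% to 0.845%, in N-LKO livers. The 11 chaperones alone summed to 1927 to 2220 CPM and to 2503 to 3187 CPM, again with no overlap, whereas the 4 sensors summed to 201 to 218 CPM and to 195 to 240 CPM. Without N-LKO 4 the median log2 fold change of the members was 0.17, and without N-LKO 2 it was 0.25.

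**Figure D4:**
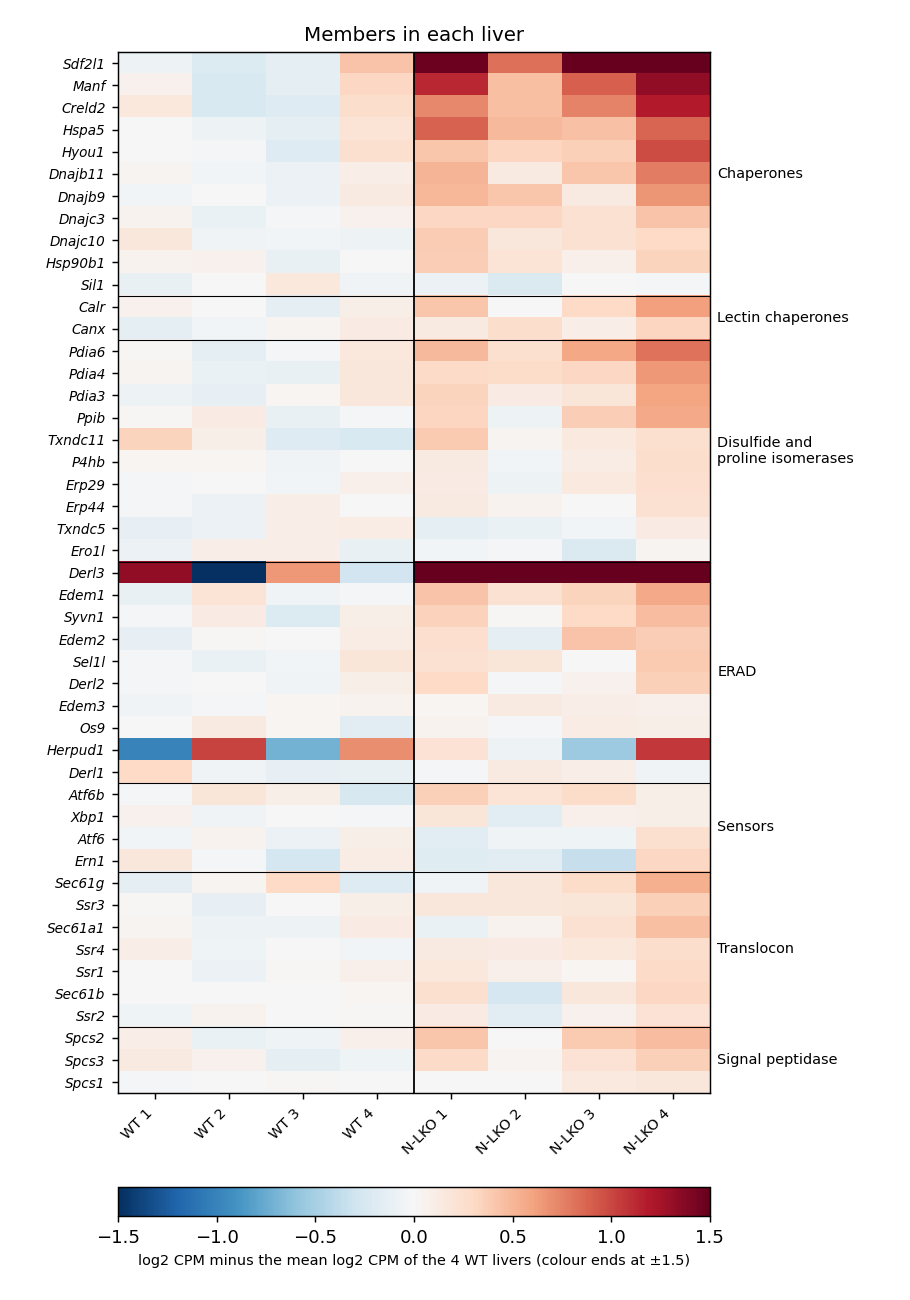
Log2 CPM of the 47 genes (rows, by role) in the 8 livers (columns), each minus the mean of the 4 WT livers, with red above and blue below that mean and the colour ending at 1.5 on the log2 scale. Chaperones are red in all N-LKO livers except Sil1, N-LKO 4 is the reddest column, and Herpud1 is blue and red within both groups.

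The wider ER machinery was near the background of all genes. Of 172 further genes of folding, ERAD, sensing, targeting and export, 164 were tested and 0 were called by edgeR's quasi-likelihood test, where 1.04% of all genes were, a share at which few calls among 164 genes would be made. At an unadjusted p under 0.05, 15 of the 164 were higher and 7 lower in N-LKO livers, or 9.15% and 4.27%, against 6.87% and 5.9% of all genes tested, and their median log2 fold change was 0.04. DESeq2 called 5 of them, or 3.05%, against 2.61% of all genes. The largest differences upward were Fkbp10, a collagen-directed proline isomerase, at 0.86, Nucb2, a calcium-binding protein, at 0.78, and Tmed3, a cargo receptor, at 0.55, and those downward were Erlin1, a membrane scaffold of ERAD, at -0.39, Pdia5 at -0.29 and Dnajb14 at -0.27. Fkbp10 was at 0.44 to 0.77 CPM in WT and 0.74 to 1.32 CPM in N-LKO livers. Erlin1, with an adjusted p of 0.083, was at 30.2 to 34.3 CPM in WT and at 21.9 to 27.5 CPM in N-LKO livers, so that every N-LKO liver was below every WT liver.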

How the data were processed

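The deposited table holds expected counts per gene, that is estimated read counts that need not be whole, for 1 liver library per mouse. The authors made RNA libraries from total RNA after RNeasy extraction, the labels name a TruSeq small RNA kit, and the submitters' processing notes list STAR, Partek and mm9, whereas the study's methods name TopHat2 and cuffdiff. The 47 genes matched GENCODE M21 on GRCm38 by coordinates, and that build is used here. The counting program and its use of strand are not given in the sources used here. Of the 47, 16 share exon bases with a gene on the other strand. Values had decimals in 52.2% of genes.

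Counts were rounded and tested with edgeR 4.0.16 in R 4.3.3 (TMM scaling, filterByExpr with a minimum count of 10 and a minimum total of 15, quasi-likelihood test, no covariate, Benjamini-Hochberg over all 14214 genes tested). CPM were scaled by library totals and TMM factors. TPM use the union of exons. The script was tested on simulated data. Alternatives were other scalings and filters, DESeq2 1.42.0, limma-voom 3.58.1, a replicate block and leaving out each mouse. The members and gene lists were chosen with earlier results of these data known, so no test was made over a list. Per-mouse values are given for called genes, for those with an unadjusted p under 0.05 and for 13 defining genes. No source names shared litters or batches, and p-values measure the spread between these mice only. No library pair matched within sampling noise. Intervals of the fits are at 95%.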

Additional observations from a re-analysis of the deposited data

Results flagged for a closer look

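In 5 of the 94 groups of 4 mice (47 genes in WT and N-LKO livers), 1 mouse stood apart from the other 3 by Dixon's test at its 95% critical value, and chance gives about 1 in 20, or 4.7. Among N-LKO livers it was N-LKO 4 each time, with a log2 CPM of 7.02 for Hyou1, 7.75 for Pdia4 and 7.99 for Ssr3. Among WT livers it was WT 1, with a log2 CPM of 4.98 for Dnajc10 and 6.93 for Derl1. All 5 were the highest of their group. The 94 groups come from the same livers and are not independent, so the count of 5 was not tested against 4.7.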

How the results depend on the processing

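The count of members called was 3 with RLE scaling, with library totals alone and with at least 10 counts in every mouse, 4 with no filter and 2 with limma-voom. These settings called 0.760% to 1.07% of all genes tested. DESeq2 called 11 of the 47 and 5 of the other ER genes, where it called 371 of all genes against 148. Leaving out 1 mouse at a time gave 0 to 7 members called and 0 to 2 other ER genes, with 0 members without WT 1, WT 2 or WT 3. The cause was not tested. With the titles' replicate number as a replicate block 6 members were called, with 0.922% of all genes. With the number in the library names as the block none was called (0), with 0.795% of all genes. The deviations of same-numbered mice correlated at -0.09 to 0.06 by the titles and -0.01 to 0.17 by the library names. Other pairs of mice were not compared, so whether either number pairs the mice was not tested. The median log2 fold change of the members stayed between 0.17 and 0.25 in all of these settings, and that of all genes moved to -0.04 when only totals were used. For 4 members near 0 the value crossed 0. By total scaling without TMM, Herpud1 was -0.0032 and Derl1 -0.00069. Without 1 mouse, Herpud1 ranged from -0.35 to 0.42 (below 0 without WT 1, WT 3 or N-LKO 4), Derl1 from -0.014 to 0.14 (below 0 without WT 3, WT 4 or N-LKO 2), Txndc5 from -0.093 to 0.00041 (above 0 without WT 4) and Atf6 from -0.096 to 0.048 (above 0 without WT 2, WT 4, N-LKO 1, N-LKO 2 or N-LKO 3). Depth limits Derl3, with 2 to 38 counts per mouse.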
